A study of Mus musculus with 6 samples.

Results

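The genes described here are 10 costimulatory and checkpoint genes that macrophages use to address T cells and other immune cells: Cd274, Pdcd1lg2, Cd80, Cd86, Cd40, Icosl, Havcr2, Lgals9, Tnfsf9 and Tnfsf10. They were chosen by symbol, and all 10 were found once each among the 52550 genes of the count table and passed the filter on low counts. RNA-seq was performed on macrophages grown from C57BL/6 bone marrow for 7 days with 25 ng/ml M-CSF, the growth factor that drives macrophage formation, and then kept for 48 h in a transwell system with BMSCs (bone marrow stromal cells that can form bone). The comparison was between 3 libraries from MSR1 KO mice and 3 libraries from MSR1 WT mice. Every library thus came from a BMSC co-culture, and the KO label refers to whole animals and not to macrophages alone. MSR1 is a scavenger receptor of macrophages that takes up modified lipoproteins and other polyanions.

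T cells need a second, costimulatory signal beside antigen to become active, and checkpoint ligands on the presenting cell restrain them. CD80 and CD86 bind CD28, which activates, and CTLA-4, which inhibits. PD-L1 (Cd274) and PD-L2 (Pdcd1lg2) both bind the inhibitory receptor PD-1, ICOS ligand (Icosl) binds ICOS, 4-1BB ligand (Tnfsf9) binds 4-1BB, and galectin-9 (Lgals9) is a ligand of TIM-3 (Havcr2). CD40 is the receptor through which helper T cells license macrophages, and TRAIL (Tnfsf10) can trigger apoptosis through death receptors. In macrophages, interferons and NF-κB signalling are known inducers of several of these genes.

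The promoters of 7 of the 10 genes were found in RefSeq (GRCm38.p6), from 250 bases before the start site to 50 bases from it on. The 4 sequences below are shown because they belong to the neighbouring pair of PD-1 ligands, which had very different levels, and to the members with the highest level and the largest change, Lgals9 and Tnfsf10. They are written 5′ to 3′ on the strand of the gene, and capitals mark matches to the motifs described after them. Cd274 was read from chr19:29367188-29367487 (plus strand), Pdcd1lg2 from chr19:29410669-29410968 (plus strand), Lgals9 from chr11:78984875-78985174 (minus strand) and Tnfsf10 from chr3:27316827-27317126 (plus strand).
Cd274: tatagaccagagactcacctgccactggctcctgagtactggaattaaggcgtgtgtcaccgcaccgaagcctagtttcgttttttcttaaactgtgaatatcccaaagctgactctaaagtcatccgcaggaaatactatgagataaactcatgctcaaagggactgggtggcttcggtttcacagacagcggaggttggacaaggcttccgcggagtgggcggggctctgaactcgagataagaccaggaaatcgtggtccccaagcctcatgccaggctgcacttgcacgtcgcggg
Pdcd1lg2: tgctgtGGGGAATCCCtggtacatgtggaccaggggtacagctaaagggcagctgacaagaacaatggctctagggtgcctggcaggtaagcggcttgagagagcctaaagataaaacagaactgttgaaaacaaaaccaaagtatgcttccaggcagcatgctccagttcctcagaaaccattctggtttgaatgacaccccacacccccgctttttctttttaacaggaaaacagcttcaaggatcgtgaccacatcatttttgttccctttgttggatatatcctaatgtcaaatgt
Lgals9: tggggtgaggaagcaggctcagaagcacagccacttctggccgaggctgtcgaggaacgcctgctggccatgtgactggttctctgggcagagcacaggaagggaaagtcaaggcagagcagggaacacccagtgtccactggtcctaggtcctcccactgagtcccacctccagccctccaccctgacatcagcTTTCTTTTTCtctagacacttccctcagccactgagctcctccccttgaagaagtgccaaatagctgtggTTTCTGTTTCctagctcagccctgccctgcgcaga
Tnfsf10: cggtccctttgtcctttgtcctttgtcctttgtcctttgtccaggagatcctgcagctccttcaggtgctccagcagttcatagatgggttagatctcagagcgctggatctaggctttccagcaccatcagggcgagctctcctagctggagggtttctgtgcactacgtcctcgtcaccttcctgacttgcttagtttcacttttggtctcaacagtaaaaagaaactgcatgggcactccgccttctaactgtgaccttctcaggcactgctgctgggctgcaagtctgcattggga

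Both strands were searched for TTCNNNGAA, the GAS element of the interferon-γ response, for GAAA followed after any 2 bases by another GAAA, the core of the ISRE bound by interferon regulatory factors, and for the NF-κB motif. A GAS and an ISRE match may overlap. Of 32544 promoters of the same length, 8.33% held the GAS letters, 3.45% the ISRE letters and 4.53% the NF-κB motif. The Lgals9 promoter held 2 ISRE matches on the opposite strand, TTTCTTTTTC from position -55 to position -46 and TTTCTGTTTC from position 15 to position 24, where the start base is position 0. The Pdcd1lg2 promoter held 1 NF-κB match, GGGGAATCCC, from position -244 to position -235. The windows of Cd274, Tnfsf10, Cd80, Icosl and Havcr2 held none of these letters. A match is a description of the sequence, and no binding was measured.

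The libraries held 36143518 to 47417448 counts. Msr1, the targeted gene, had 2118, 1825 and 2000 counts in MSR1 KO and 7543, 9163 and 9219 counts in MSR1 WT libraries, which was lower in each KO library but not absent. Of 8 macrophage markers, the summed level was 23573 to 24611 CPM (counts scaled to the library total, with TMM factors) in MSR1 KO and 23652 to 26256 CPM in MSR1 WT libraries, and none was at 0.

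Among the 10 members, Tnfsf10, Cd86 and Lgals9 rose in MSR1 KO libraries at an adjusted p under 0.05, and none fell (edgeR's quasi-likelihood test, Benjamini-Hochberg adjustment over 16402 genes). Over all genes tested, 2.25% rose and 2.66% fell by this rule. With 1 library left out, no member passed without KO replicate 1, WT replicate 1 or WT replicate 2, 1 passed without KO replicate 2 and 2 passed without KO replicate 3, while the number over all genes fell from 805 to as few as 71, without WT replicate 1. The study's own definition of a changed gene, a fold change above 1.5 with an unadjusted p under 0.05, was applied to the edgeR values. By this definition, Tnfsf10 and Cd274 were higher and Tnfsf9 was lower, against backgrounds of 3.59% higher and 5.05% lower. The 3 MSR1 KO libraries lay above the 3 MSR1 WT libraries for 5 members (Tnfsf10, Cd274, Cd40, Cd86 and Lgals9), where 12.1% of all genes did so, and below them for 2 members (Havcr2 and Tnfsf9), where 13.4% did so. The median log2 fold change of the 10 members was 0.40, and that of all genes tested was -0.0023. In cultures such as these, a change in the share of cells that express a gene and a change in the RNA per cell cannot be told apart. The p-values measure the spread between these libraries, and the labels do not say that each came from a separate mouse.

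**Figure D1:**
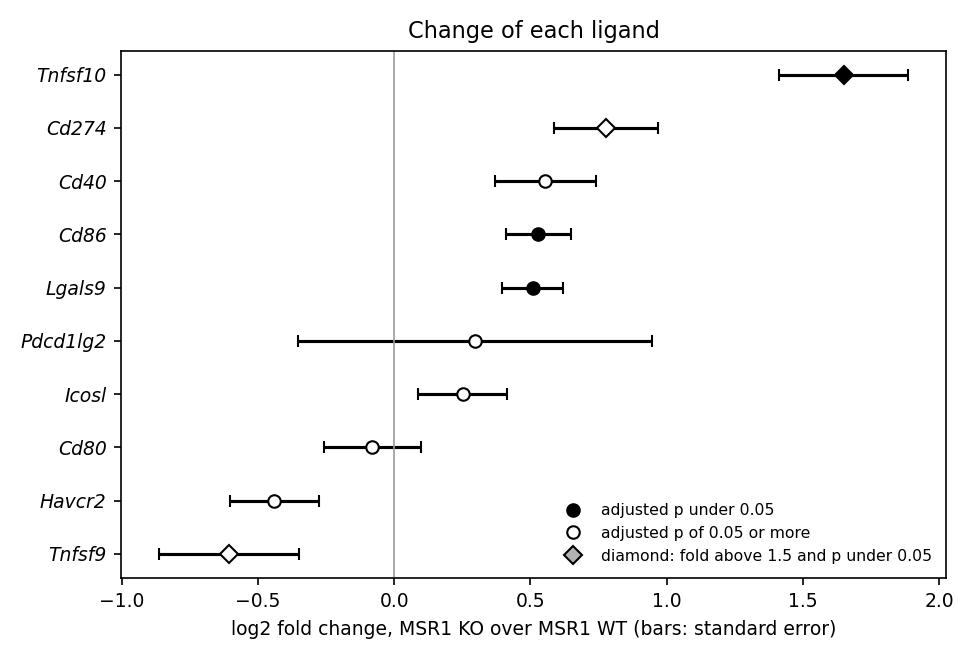
The log2 fold change of each ligand, MSR1 KO over MSR1 WT, with its standard error as a bar (3 libraries per genotype). Filled symbols mark an adjusted p under 0.05 and diamonds mark the study's definition. Tnfsf10 stood at 1.65, Cd274, Cd40, Cd86 and Lgals9 between 0.51 and 0.78, and Tnfsf9 lowest at -0.61.

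The PD-1 ligands were measured first. Cd274 (ENSMUSG00000016496.7, GRCm38 chromosome 19 from 29367455 to 29388095), which encodes PD-L1, had 139.2, 154.4 and 90.2 CPM in MSR1 KO and 70.7, 67.3 and 86.1 CPM in MSR1 WT libraries. KO replicates 1 and 2 were well above all WT libraries, whereas KO replicate 3 was only just above WT replicate 3, and the groups did not overlap. The mean was 128 ± 33.5 CPM in MSR1 KO and 74.7 ± 10.03 CPM in MSR1 WT (SD, n = 3 each). Its log2 fold change was 0.78 (standard error 0.19, 1.71-fold). The unadjusted p was 0.0034 and the edgeR adjusted p was 0.059, so Cd274 met the study's definition but not the adjusted threshold. Without KO replicate 3 its log2 fold change was 0.98 (edgeR adjusted p = 0.020), and DESeq2's Wald test gave an adjusted p of 0.00076. An antisense gene on the opposite strand covers 14.1% of the exon bases of Cd274, and since the strand setting of the counting was not given, reads from it cannot be told apart.

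Pdcd1lg2 (ENSMUSG00000016498.9, chromosome 19 from 29410919 to 29471157), which encodes PD-L2, starts 22823 bases after the end of Cd274. It was barely read in either genotype, with 35, 16 and 11 counts in MSR1 KO and 9, 28 and 20 counts in MSR1 WT libraries. The groups overlapped widely, and the highest and lowest values of the KO group were 35 and 11 counts. The log2 fold change of 0.30 had a standard error of 0.65 (edgeR adjusted p = 0.86), and without KO replicate 1 it turned to -0.43. A difference was therefore not detectable at this depth. The log2 ratio of Cd274 to Pdcd1lg2 within a library was 7.94 ± 0.74 in MSR1 KO and 7.37 ± 0.67 in MSR1 WT (SD, n = 3 each). The groups overlapped in this ratio, and the difference of 0.57 gave a two-sided p of 0.3 by an exact permutation test, which with 3 libraries against 3 cannot go below 0.1. With a library left out, this difference ranged from 0.24 (without WT replicate 2) to 0.995 (without KO replicate 1).

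The CD28 and CTLA-4 ligands lie on the same chromosome, 1792851 bases apart. Cd86 (ENSMUSG00000022901.13, chromosome 16 from 36603869 to 36666081) had 51.0, 59.0 and 56.4 CPM in MSR1 KO and 35.8, 34.5 and 45.2 CPM in MSR1 WT libraries. Every KO library was above every WT library, and WT replicate 3 came closest. From 38.5 ± 5.83 CPM in MSR1 WT, Cd86 rose to 55.5 ± 4.07 CPM in MSR1 KO (SD, n = 3 each). The log2 fold change was 0.53 (standard error 0.12, 1.44-fold, edgeR adjusted p = 0.045). This call was close to the threshold. It was lost with library size alone as the scaling (adjusted p = 0.051) and without any 1 of the 5 libraries other than WT replicate 3 (adjusted p from 0.084 to 0.17). The log2 fold change itself ranged from 0.45 to 0.66 when each library was left out in turn.

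Cd80 (ENSMUSG00000075122.4, chromosome 16 from 38458933 to 38486933) had 458, 413 and 798 counts in MSR1 KO and 595, 686 and 567 counts in MSR1 WT libraries. KO replicate 3 was the highest of all 6 libraries and KO replicates 1 and 2 the lowest, so the groups overlapped. Mean levels were 13.4 ± 3.45 CPM in MSR1 KO and 14.2 ± 0.416 CPM in MSR1 WT (SD, n = 3 each), and the log2 fold change was -0.08 (standard error 0.18, edgeR adjusted p = 0.87). The sign of this value changed to 0.076 without KO replicate 2. The log2 ratio of Cd86 to Cd80 was 2.07 ± 0.40 in MSR1 KO and 1.42 ± 0.25 in MSR1 WT libraries (SD, n = 3 each). KO replicate 3, at 1.71, lay just below WT replicate 3, at 1.72, so the groups overlapped, and the difference of 0.65 gave a two-sided p of 0.2 by an exact permutation test. No difference could have passed 0.05 in this test with 3 libraries against 3.

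**Figure D2:**
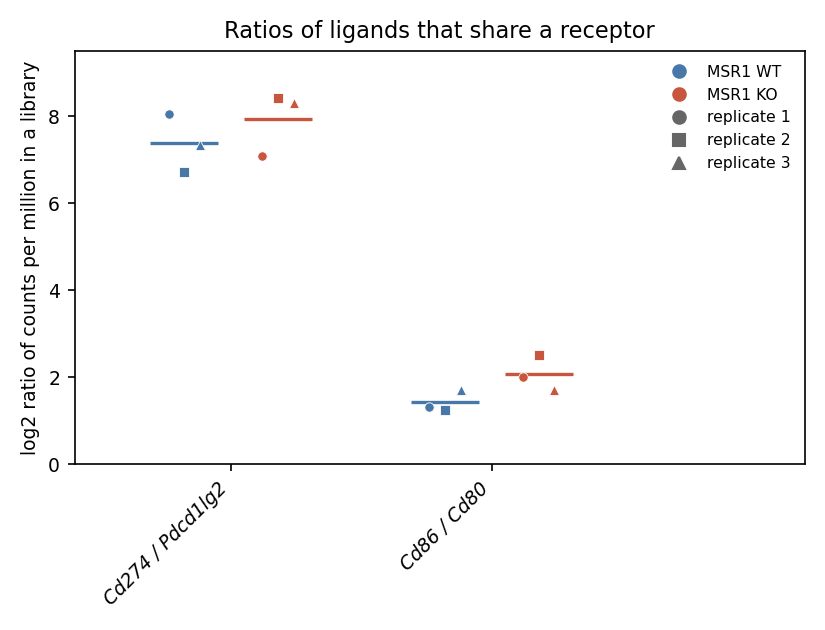
The log2 ratio of CPM of Cd274 to Pdcd1lg2 and of Cd86 to Cd80 in each library, with horizontal lines at the group means. Cd274 exceeded Pdcd1lg2 by 7.94 in MSR1 KO and 7.37 in MSR1 WT on the log2 scale, Cd86 exceeded Cd80 by 2.07 and 1.42, and the genotypes overlapped in both ratios.

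Icosl (ENSMUSG00000000732.9, chromosome 10 from 78069302 to 78083913), the ligand of ICOS, had 660, 1005 and 971 counts in MSR1 KO and 627, 1026 and 717 counts in MSR1 WT libraries. The highest raw count was that of WT replicate 2. After scaling to library size, KO replicate 2 was the highest, at 25.2 CPM against 21.6 CPM in WT replicate 2, and the groups overlapped. Its mean level was 21.5 ± 3.48 CPM in MSR1 KO and 18.1 ± 3.27 CPM in MSR1 WT (SD, n = 3 each), with a log2 fold change of 0.25 (standard error 0.16, edgeR adjusted p = 0.47). This difference was about the size of the spread between replicates. The log2 fold change of Icosl ranged from 0.12 to 0.40 when each library was left out in turn.

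Of the 3 members of the TNF and TNF receptor families, only Tnfsf10 passed the adjusted threshold. Tnfsf10 (ENSMUSG00000039304.11, chromosome 3 from 27317028 to 27342427), which encodes TRAIL, had 22.1, 22.3 and 14.3 CPM in MSR1 KO and 5.34, 5.21 and 8.16 CPM in MSR1 WT libraries. Even the lowest KO library, replicate 3, was well above the highest WT library, replicate 3. From 6.23 ± 1.67 CPM in MSR1 WT, Tnfsf10 rose to 19.6 ± 4.59 CPM in MSR1 KO (SD, n = 3 each). On the log2 scale this was a change of 1.65 (standard error 0.24, 3.14-fold, edgeR adjusted p = 0.016). The size of this rise varied little, from 1.53 to 1.89 on the log2 scale, when each library was left out in turn. The adjusted p was then 0.058 without KO replicate 1, 0.074 without WT replicate 1 and 0.051 without WT replicate 2. NK cells also carry TRAIL, and of 8 T and NK cell markers Klrb1c rose with it, from 3.21 to 8.40 CPM (log2 fold change 1.39, edgeR adjusted p = 0.028). The summed level of that list was 106 to 153 CPM in MSR1 KO and 93.1 to 147 CPM in MSR1 WT libraries, most of it Cd4. Of its T cell genes, Cd3e had 0 counts in 3 libraries and at most 9 in the others, and Cd8a had 0 counts in 3 libraries and at most 21 in the others. Trac, a T cell receptor chain, had 27, 24 and 47 counts in MSR1 KO and 13, 15 and 19 counts in MSR1 WT libraries, with every KO library above every WT library (log2 fold change 1.11, edgeR adjusted p = 0.21). Cd3g went the other way, with 8, 6 and 24 counts in MSR1 KO and 8, 12 and 29 counts in MSR1 WT libraries. Its groups overlapped (log2 fold change -0.34, edgeR adjusted p = 0.86). The part of such cells in the level of Tnfsf10 was not tested.

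Cd40 (ENSMUSG00000017652.16, chromosome 2 from 165055627 to 165072948) had 270, 390 and 347 counts in MSR1 KO and 209, 318 and 210 counts in MSR1 WT libraries. After scaling to library size, all KO libraries were above all WT libraries, although the raw count of WT replicate 2 exceeded that of KO replicate 1. Mean levels were 8.26 ± 1.33 CPM in MSR1 KO and 5.62 ± 0.939 CPM in MSR1 WT (SD, n = 3 each). The log2 fold change of Cd40 was 0.55 (standard error 0.18, 1.47-fold). With an unadjusted p of 0.017 and an edgeR adjusted p of 0.14, Cd40 met neither definition.

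Tnfsf9 (ENSMUSG00000035678.7, chromosome 17 from 57105385 to 57107757), the 4-1BB ligand, had 66, 67 and 96 counts in MSR1 KO and 141, 99 and 125 counts in MSR1 WT libraries. Scaled levels were lower in every KO library than in any WT library. They averaged 1.86 ± 0.192 CPM in MSR1 KO and 2.84 ± 0.685 CPM in MSR1 WT (SD, n = 3 each). Its log2 fold change was -0.61 (standard error 0.26). Tnfsf9 met the study's definition (1.52-fold lower, unadjusted p = 0.045) but was far from the adjusted threshold (edgeR adjusted p = 0.25). It no longer met the study's definition by DESeq2's Wald test, with a replicate block or without any 1 of the 5 libraries other than WT replicate 2, while its log2 fold change stayed between -0.79 and -0.45. A lincRNA on the opposite strand, Gm11110, covers 14.9% of its exon bases and had 13 to 38 counts itself, so the count of Tnfsf9 is uncertain without the strand setting.

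Galectin-9 and its receptor TIM-3 were read next. Lgals9 (ENSMUSG00000001123.15, chromosome 11 from 78962974 to 78984946) was the most abundant member, with 234.2, 215.6 and 260.4 CPM in MSR1 KO and 166.6, 144.8 and 188.0 CPM in MSR1 WT libraries. The lowest KO library stood above the highest WT library. The mean rose from 166 ± 21.6 CPM in MSR1 WT to 237 ± 22.5 CPM in MSR1 KO (SD, n = 3 each). This gave a log2 fold change of 0.51 (standard error 0.11, 1.42-fold, edgeR adjusted p = 0.041). Without any 1 of the 5 libraries other than WT replicate 3 the call was lost, at edgeR adjusted p-values from 0.060 to 0.15, while the log2 fold change stayed between 0.42 and 0.60. Its promoter was the only one of the 7 with an ISRE match, and this says nothing about what acted on it.

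Havcr2 (ENSMUSG00000020399.14, chromosome 11 from 46454935 to 46481255), which encodes TIM-3, had 219, 226 and 301 counts in MSR1 KO and 307, 465 and 310 counts in MSR1 WT libraries. Every KO library was below every WT library, with WT replicate 2 standing highest. Its level averaged 6.08 ± 0.40 CPM in MSR1 KO and 8.25 ± 1.34 CPM in MSR1 WT (SD, n = 3 each). Its log2 fold change was -0.44 (standard error 0.16). The unadjusted p was 0.026 and the edgeR adjusted p was 0.19, so the lower level of Havcr2 met neither definition.

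**Figure D3:**
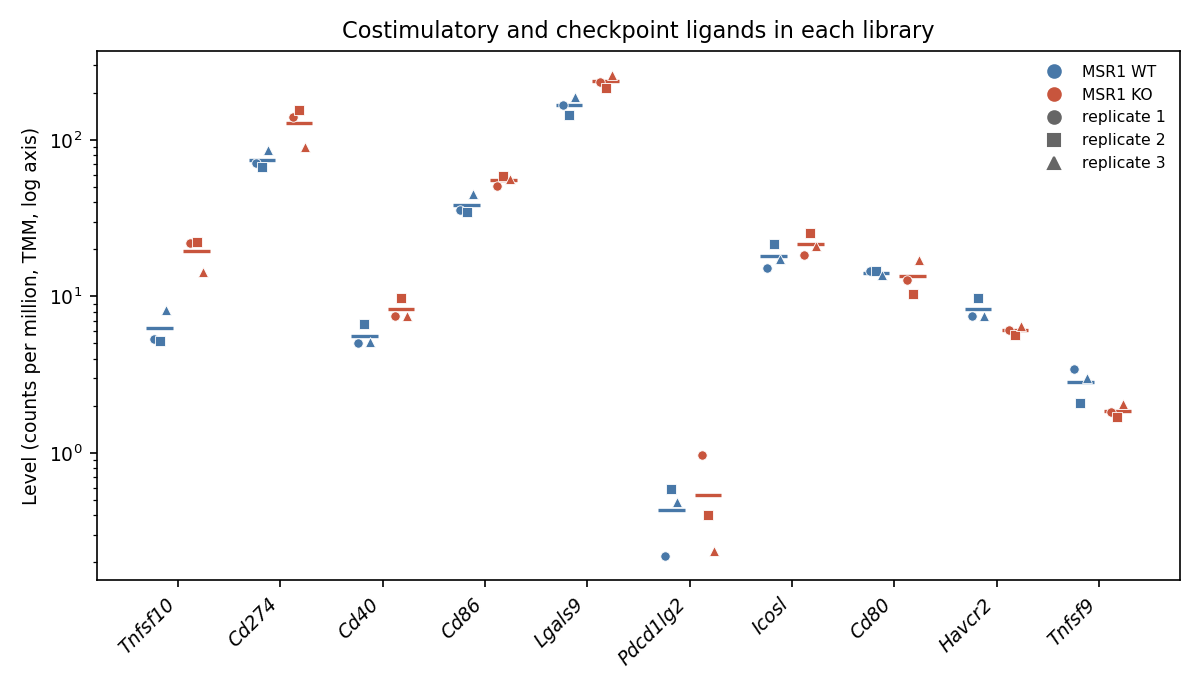
The level of each ligand in each library, in CPM on a log axis, ordered by log2 fold change, with horizontal lines at the group means. Tnfsf10, Cd274, Cd40, Cd86 and Lgals9 show all 3 MSR1 KO libraries above all 3 MSR1 WT libraries, Havcr2 and Tnfsf9 the opposite, and Pdcd1lg2, Icosl and Cd80 overlap.

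Single libraries weighed differently on different members. KO replicate 3 had the lowest level of its group for Cd274 and Tnfsf10 but the highest for Lgals9 and Cd80. WT replicate 3 had the highest level of its group for Cd274, Cd86, Lgals9 and Tnfsf10. Within the MSR1 KO group, the coefficient of variation was 26.2% for Cd274 and 72.0% for Pdcd1lg2, and within the MSR1 WT group it was 13.4% and 44.5%. The group means of these 2 genes therefore had unequal precision.

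Per length of exon, the members covered a wide range of levels. In MSR1 KO libraries, Lgals9 stood at 111 CPM per kilobase, Cd274 at 35.3, Cd86 at 15.2, Icosl at 4.65, Tnfsf10 at 3.71, Cd80 at 3.63, Cd40 at 2.43, Havcr2 at 2.24, Tnfsf9 at 1.44 and Pdcd1lg2 at 0.274 CPM per kilobase. Neighbours in this order from Icosl to Havcr2 did not differ beyond the spread over libraries, whereas Lgals9, Cd274 and Cd86 were each apart from the next, as were Havcr2, Tnfsf9 and Pdcd1lg2. In MSR1 WT libraries, the order was Lgals9 at 77.9, Cd274 at 20.6, Cd86 at 10.5, Icosl at 3.91, Cd80 at 3.84, Havcr2 at 3.03, Tnfsf9 at 2.21, Cd40 at 1.65, Tnfsf10 at 1.184 and Pdcd1lg2 at 0.220 CPM per kilobase. There, the ranges of Icosl and Cd80 overlapped, as did those of Tnfsf9 and Cd40 and of Cd40 and Tnfsf10. The top 4 and the last place were thus held by the same genes in both genotypes, and Tnfsf10 went from rank 9 in MSR1 WT to rank 5 in MSR1 KO libraries. PD-L1 and galectin-9 transcripts made up most of the transcripts of these ligands per length in either genotype, and PD-L2 transcripts were rare.

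**Figure D4:**
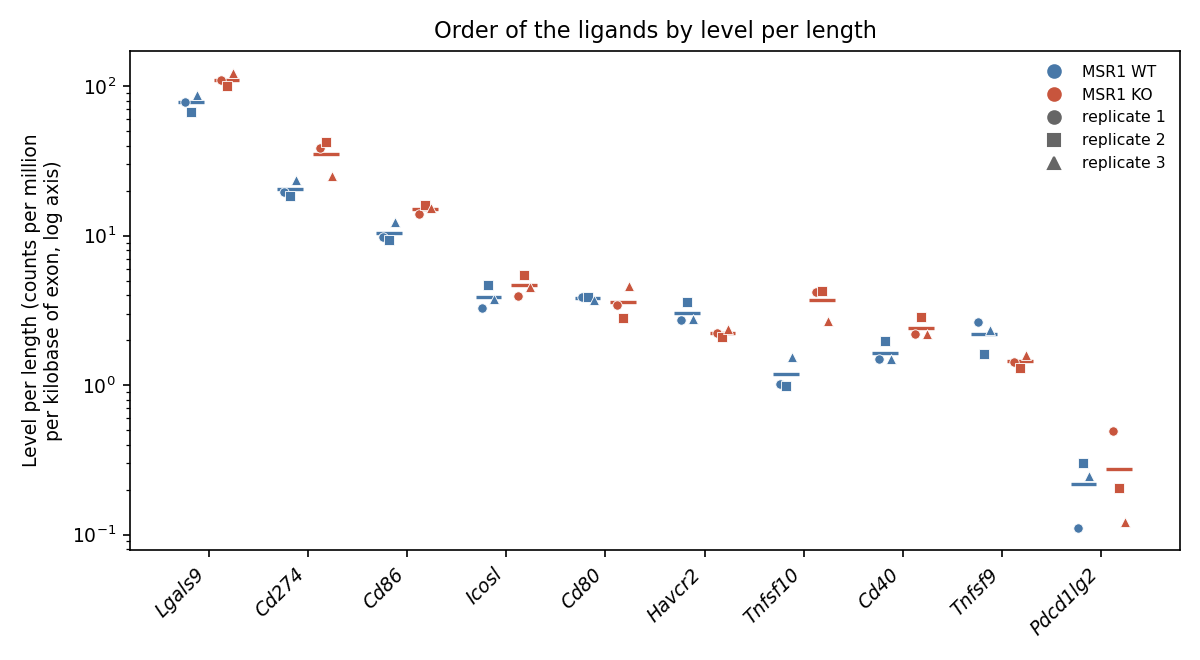
Levels per length, in CPM per kilobase of merged exons on a log axis, in each library, ordered by the mean over all libraries, with horizontal lines at the group means. Lgals9, Cd274 and Cd86 are the highest 3 in both genotypes, Pdcd1lg2 is the lowest, and Tnfsf10 moves from 1.184 in MSR1 WT to 3.71 in MSR1 KO.

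Other ligands and regulators of the same families were read from a list of 39 genes, of which 32 had enough counts to be tested and 6 were at 0 in every library. At the adjusted threshold 4 rose and 0 fell, and by the study's definition 6 were higher and 1 was lower. Over all genes tested, 2.25% rose and 2.66% fell at this threshold, and 3.59% were higher and 5.05% lower by the study's definition. Fgl2, a secreted ligand that restrains T cells, rose from 60.0 to 271 CPM (log2 fold change 2.18, edgeR adjusted p = 0.031), with 9129, 16942 and 6201 counts in MSR1 KO and 2147, 1877 and 3646 counts in MSR1 WT libraries. Tnfsf8, the ligand of CD30, rose by 1.97 on the log2 scale (edgeR adjusted p = 0.026), from 26 to 76 counts in MSR1 WT to 178 to 202 counts in MSR1 KO libraries. H2-T23, the Qa-1 molecule that NKG2A reads on NK and T cells, rose by 1.21 (edgeR adjusted p = 0.024), and Cd47, the signal that restrains phagocytosis, by 0.36 (edgeR adjusted p = 0.043). Both Slamf1, at -1.15 with at most 32 counts, and Cd200, at -1.11 (edgeR adjusted p = 0.083), missed the threshold. The genes that rose thus included inhibitory ligands as well as a costimulatory one. With 1 library left out, 0 genes of the whole list passed without KO replicate 1, KO replicate 2, WT replicate 1 or WT replicate 2. Without KO replicate 3, 2 genes of the list passed.

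Receptors for these ligands were also read, since macrophages express some of them. Of 12 genes, 7 had enough counts to be tested, and Pdcd1 and Ctla4 were at 0 in every library. Tnfrsf9, which encodes 4-1BB, had 132, 166 and 321 counts in MSR1 KO and 53, 58 and 87 counts in MSR1 WT libraries, a rise of 1.68 on the log2 scale (edgeR adjusted p = 0.030). Its ligand Tnfsf9, at -0.61, did not pass. Cd226, which binds PVR and Nectin-2, rose by 1.41 (edgeR adjusted p = 0.024), from 64, 71 and 92 counts in MSR1 WT to 201, 177 and 186 counts in MSR1 KO libraries. Each KO library exceeded each WT library for both genes, as it did for 12.1% of all genes tested. NK cells also express these 2 receptors, and Klrb1c rose as given above, while Ncr1, another NK cell marker, had 172, 237 and 284 counts in MSR1 KO and 129, 74 and 232 counts in MSR1 WT libraries (edgeR adjusted p = 0.39). Their part in these rises was not tested. Cd96 at 1.17, Lag3 at 1.11 and Icos at 0.78 on the log2 scale did not pass (edgeR adjusted p of 0.23, 0.33 and 0.28). Cd28 stood at 88.3 CPM in MSR1 KO and 114 CPM in MSR1 WT libraries (log2 fold change -0.37, edgeR adjusted p = 0.25), and Tnfrsf4, Cd40lg, Btla and Tigit had at most 57 counts in any library.

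Of 31 interferon and NF-κB regulators, all had enough counts, and 7 rose and 0 fell at the adjusted threshold. Over all genes tested, 2.25% rose and 2.66% fell. The median log2 fold change of the regulators was 0.17, and that of all genes tested was -0.0023. Without KO replicate 1 or WT replicate 1 none passed, without WT replicate 2 only 1 did and without KO replicate 2 only 2 did. Stat2, which with Irf9 carries the interferon signal to ISRE elements, had 9932, 11844 and 10474 counts in MSR1 KO and 3997, 4108 and 6155 counts in MSR1 WT libraries. Every KO library was well above every WT library. Stat2 rose by 1.27, Irf7 by 1.35, Irf5 by 0.60, Irf2 by 0.50 and Irf9 by 0.48 on the log2 scale (edgeR adjusted p from 0.019 to 0.035). Socs1, a feedback inhibitor of the pathway, rose by 1.36 (edgeR adjusted p = 0.045). Batf2, at 1.10 (edgeR adjusted p = 0.15), and Irf1, at 1.02 (edgeR adjusted p = 0.073), did not pass. The NF-κB subunits were near 0, with log2 fold changes of 0.02 for Nfkb1, 0.03 for Rela, -0.07 for Nfkb2, -0.06 for Relb and 0.26 for Rel, none past the threshold (lowest edgeR adjusted p = 0.22). These transcripts are levels of regulators and not their activity. Fcgr1, a macrophage marker that interferon is known to induce, rose by 1.14 (edgeR adjusted p = 0.018) and was the only one of the 8 macrophage markers to pass.

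Of 20 partners of CD40 and TRAIL, all were tested, 0 rose and 1 fell, where 2.25% of all genes rose and 2.66% fell. Their median log2 fold change was 0.06, and that of all genes tested was -0.0023. None passed without WT replicate 1, 1 rose and 1 fell without KO replicate 2, and 2 rose and 1 fell by DESeq2's Wald test. Tnfrsf11b, which encodes osteoprotegerin, a decoy receptor for TRAIL and for the osteoclast factor RANKL, had 586, 768 and 628 counts in MSR1 KO and 1563, 1624 and 1359 counts in MSR1 WT libraries. The groups were far apart, and it fell by 1.10 on the log2 scale (standard error 0.14, edgeR adjusted p = 0.010). Osteoprotegerin is known as a product of stromal cells, and 3 of 9 stromal cell markers fell as well, Pdgfra by 1.19, Cxcl12 by 1.11 and Pdgfrb by 0.87 on the log2 scale (edgeR adjusted p of 0.014, 0.031 and 0.025), with none at 0. The summed level of the 9 markers was 1120 to 1467 CPM in MSR1 KO and 1465 to 1879 CPM in MSR1 WT libraries. The part of stromal RNA in the level of Tnfrsf11b was not tested. The death receptor of TRAIL, Tnfrsf10b, had a log2 fold change of -0.18 (edgeR adjusted p = 0.61), and the decoy Tnfrsf22 one of -0.38 (edgeR adjusted p = 0.73). Ripk1 at 0.38, Traf1 at 0.37 and Bid at 0.34, which act below these receptors, did not pass either (edgeR adjusted p of 0.12, 0.32 and 0.19).

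**Figure D5:**
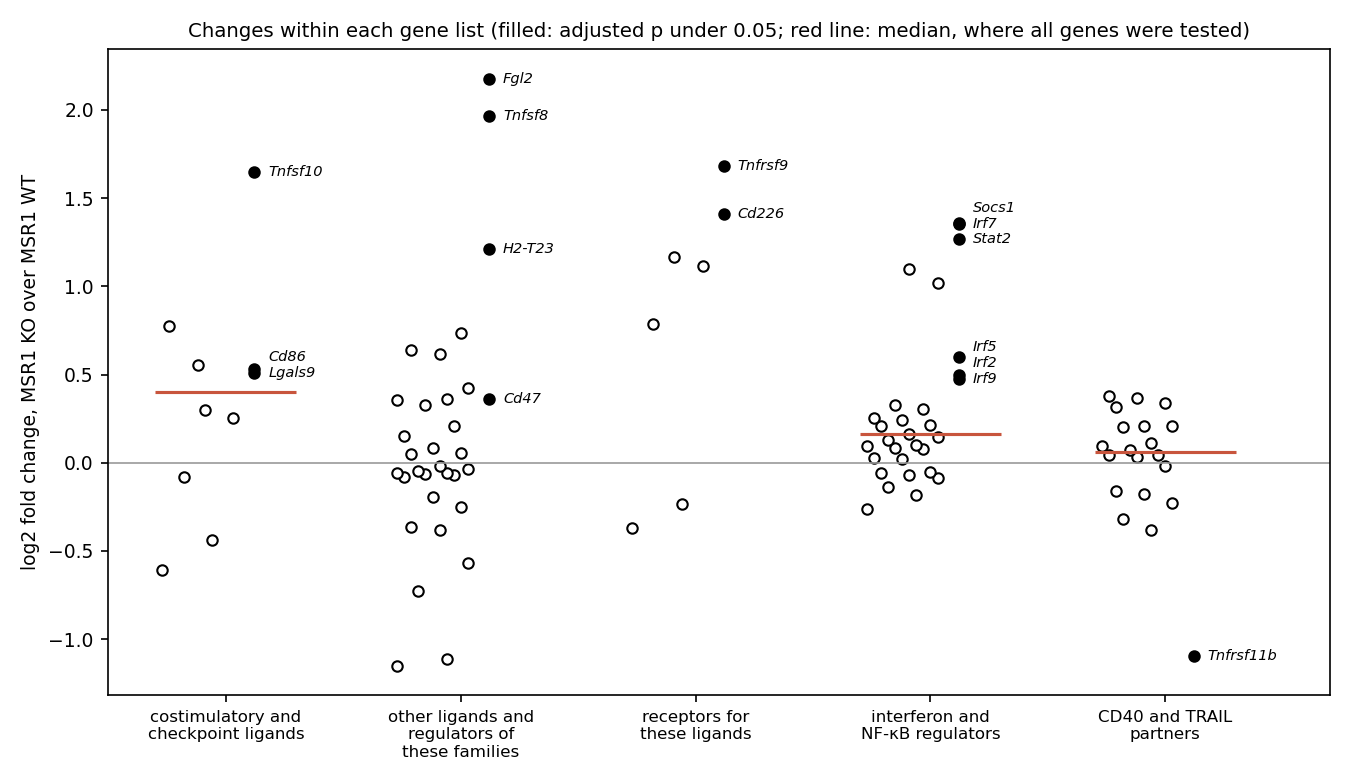
The log2 fold change, MSR1 KO over MSR1 WT, of the tested genes in 5 lists, with filled points and names for an adjusted p under 0.05 and a red line at the median of the lists that were tested whole. Of the ligands 3 rose, of the other genes of these families 4, of the receptors 2 and of the regulators 7 (1 of them is not drawn), and among the CD40 and TRAIL partners Tnfrsf11b alone fell.

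Dendritic and B cells also carry many of these ligands. Of 8 dendritic cell markers, Itgax alone changed at the adjusted threshold, falling by 2.50 on the log2 scale (edgeR adjusted p = 0.0045), from 111 to 19.6 CPM. Itgax, an integrin that macrophages also express, made up most of the summed level, which was 19.5 to 29.0 CPM in MSR1 KO and 79.2 to 147 CPM in MSR1 WT libraries. The other markers of that list were low, with at most 81 counts in a library. Xcr1 at 2.04, Ccr7 at 2.49 and Clec9a at 1.80 on the log2 scale did not pass (edgeR adjusted p of 0.060, 0.18 and 0.36). Siglech, at -0.78, did not pass either (edgeR adjusted p = 0.63). Of the 7 tested markers of that list, Itgax included, 3 had a log2 fold change above 0 and 4 below 0. Of 5 B cell markers, Cd79b alone had enough counts to be tested (log2 fold change 0.27, edgeR adjusted p = 0.33), Ms4a1 had at most 4 counts, and the summed level was 19.1 to 22.9 CPM in MSR1 KO and 15.4 to 20.2 CPM in MSR1 WT libraries. None of 6 neutrophil markers passed the threshold, and their sum was 267 to 453 CPM in MSR1 KO and 191 to 321 CPM in MSR1 WT libraries, with Ly6g at 1.30 on the log2 scale (edgeR adjusted p = 0.27). The part of these cells in the levels of the ligands was not tested.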

How the data were processed

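RNA-seq libraries of BMSC co-cultured macrophages (3 MSR1 KO, 3 MSR1 WT) were analysed from 1 table of the whole series. In this table the authors deposited raw counts per gene and library, which were used here, and also a signal per library (counts divided by a size factor), the log2 fold change and the p-value and adjusted p-value of their own comparison, none of which were used. The submitters' processing notes name fastp 0.17.1, HISAT2 2.1.0, DESeq2 1.18.1 and R 3.4.3, whereas the paper's methods name TopHat as the aligner. The counting program, strand setting and genome build are not given in the sources used here. GENCODE M21 (GRCm38) listed 52403 of the 52550 identifiers, 49909 of them with identical boundaries.

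In edgeR 4.0.16 (R 4.3.3), filterByExpr left 16402 genes, TMM set the scaling, and the quasi-likelihood F-test was run on all of them with Benjamini-Hochberg adjustment. Standard errors were obtained by dividing the log2 fold change by the root of F. Ratios within a library used log2 CPM with a prior count of 2 and a two-sided exact permutation test. Levels per kilobase used merged exons. Named genes were the 10 members, up to 5 genes of each other list with the largest absolute change, all receptors by counts, and Msr1. Outside this rule, Cd47, Irf1, Irf2, Irf5, Irf9, the NF-κB subunits, Tnfrsf10b, Cd3e, Cd8a and Ms4a1 were named after their values were seen. The members and lists were chosen with earlier results of these data known. Where several identifiers had 1 listed symbol (2 symbols), the most abundant was taken. The methods were tested on simulated data. Alternatives were DESeq2 1.42.0, other scalings and filters, a replicate block, coding exons alone and each library left out. A library holds 36143518 to 47417448 counts, which limits genes such as Pdcd1lg2, and a count of 0 allows up to 3 counts (counting error only). Values of some listed genes are not reported here, though list counts include them.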

Additional observations from a re-analysis of the deposited data

How the results depend on the processing

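At the adjusted threshold, DESeq2's Wald test called 1568 genes (720 higher, 848 lower) against 805 by edgeR, and 8 of the other ligands and regulators, 11 of the interferon and NF-κB regulators and 3 of the CD40 and TRAIL partners (2 higher, 1 lower) against 4, 7 and 1. Keeping every gene with a count, which raised the number of genes tested to 25014, 525 genes and 1 member were called. No shared effect of the replicate number was visible (correlations of same-numbered deviations -0.026, 0.019 and -0.0048). This cannot tell whether the samples were paired, since the labels do not say so. A block for the replicate number leaves fewer degrees of freedom. With it, 137 genes, 1 member, 0 other ligands and regulators and 0 interferon and NF-κB regulators were called. Leaving out each library in turn, which leaves fewer samples, gave 71 to 779 genes (lowest without WT replicate 1), 0 to 3 members, 0 to 4 other ligands and regulators, 0 to 6 interferon and NF-κB regulators and 0 to 2 CD40 and TRAIL partners.

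Cd274 passed the threshold with DESeq2 (log2 fold change 0.78) and with a filter of at least 10 counts in every library (0.78, adjusted p = 0.047), and ranged from 0.62 to 0.98 with a library left out. Cd86 missed it with library size alone (0.50), without a filter (0.53) and with the replicate block (0.54, adjusted p = 0.081), and ranged from 0.45 to 0.66. Lgals9 missed it without a filter (0.51, adjusted p = 0.055) and ranged from 0.42 to 0.60. Tnfsf10 missed it with the replicate block (1.65, adjusted p = 0.061) and ranged from 1.53 to 1.89. With a library left out, Pdcd1lg2 ranged from -0.43 to 0.66 and Cd80 from -0.29 to 0.076, so both changed sign, and the cause was not tested. Pdcd1lg2 was not tested with at least 10 counts in every library. Signs of the other 8 members were the same under all alternatives run, as were those of both ratios. The number of members past the study's definition was 2 to 4. With coding exons alone, 8 of 10 members kept their place in the order of levels, and Havcr2 and Tnfsf10 traded places.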
